A study of Mus musculus with 36 samples.

Results

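The genes of hepatic fatty acid synthesis were followed as 10 members chosen by symbol, Thrsp, Fasn, Acaca, Acacb, Acly, Me1, Mlxipl, Pnpla3, Aacs and Acss2, out of 24421 genes counted in every library. All 10 passed the filter on low counts in every comparison. The RNA came from livers of 36 male C57BL/6J mice, 1 library per mouse, bought at 7 weeks of age, acclimated for 1 week and fed for 12 weeks the CDAHFD, a steatohepatitis diet rich in fat, without choline and with defined amino acids. The HFD experiment, 14 days on a high-fat diet with 2 subcutaneous injections, had 10 mice on Fc (4.3 mg/kg) and 10 on Fc(mML1)B3 (5 mg/kg). The standard diet experiment, 10 days on that diet with 3 injections of the same doses, had 9 on Fc and 7 on Fc(mML1)B3. Fc(mML1)B3 is an antibody Fc fragment carrying a macrocyclic peptide that binds and activates Met, the receptor of hepatocyte growth factor, and Fc lacks the peptide. Every group had therefore been through the CDAHFD, no mouse of the 4 groups was healthy or untreated, and diet cannot be told apart from experiment, dosing schedule and series of libraries.

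Hepatocytes make fatty acids from citrate that leaves the mitochondria. ATP citrate lyase turns it into cytosolic acetyl-CoA, acetyl-CoA carboxylase makes malonyl-CoA, and fatty acid synthase builds palmitate with NADPH. Insulin acts on these genes mainly through SREBP-1c and glucose mainly through ChREBP, which Mlxipl encodes. In rodent liver, Thrsp (Spot 14) is a small nuclear and cytosolic protein that responds to thyroid hormone and carbohydrate and rises with feeding.

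Total counts were 14949035 to 28466853 reads per library. The liver identity of the libraries was plain, since albumin stood at 55800 CPM or more in each (CPM, the count of a gene scaled to the TMM-adjusted total of its library). Adipocytes express most of the 10 members too. Of 7 adipocyte markers, Lep had 0 reads in all 36 libraries, and Tusc5, Adipoq, Retn and Plin1 reached at most 0.889, 0.529, 0.271 and 0.248 CPM, while Cfd reached 6.09 CPM and Fabp4, which macrophages and endothelial cells also express, 61.7 CPM. The part of adipocyte RNA in the results was not tested. Fc mice 7 and 8 of the HFD experiment stood apart, with 22.0 and 19.9 CPM of the neutrophil gene S100a8 against 1.59 to 5.89 CPM in the other 8. Fc mouse 5 of the standard diet experiment had 25.4 CPM.

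Fc(mML1)B3 raised 6 of the 10 members under the standard diet and changed none by the same rule under the HFD. The calls are those of edgeR's quasi-likelihood test at an adjusted p below 0.05, with no limit on fold change, and every adjusted p of a comparison between groups below comes from it. Under the standard diet Thrsp, Fasn, Acaca, Acly, Pnpla3 and Aacs were higher, beside 8.56% of all tested genes called higher and 7.55% called lower. Under the HFD 0 members were called, beside 8.14% of all genes called higher and 6.68% lower. At an unadjusted p below 0.05, Thrsp and Mlxipl were higher, beside 15.3% of all genes, and Acss2 lower, beside 14.5%. DESeq2 called 0 members too, and limma-voom called Thrsp (adjusted p = 0.0263) and Mlxipl (adjusted p = 0.0489). The shares of all genes called by DESeq2 and limma-voom were not computed. The median log2 fold change of the 10 members was 0.47 under the standard diet and -0.19 under the HFD, beside -0.01 over all tested genes in either experiment.

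**Figure D1:**
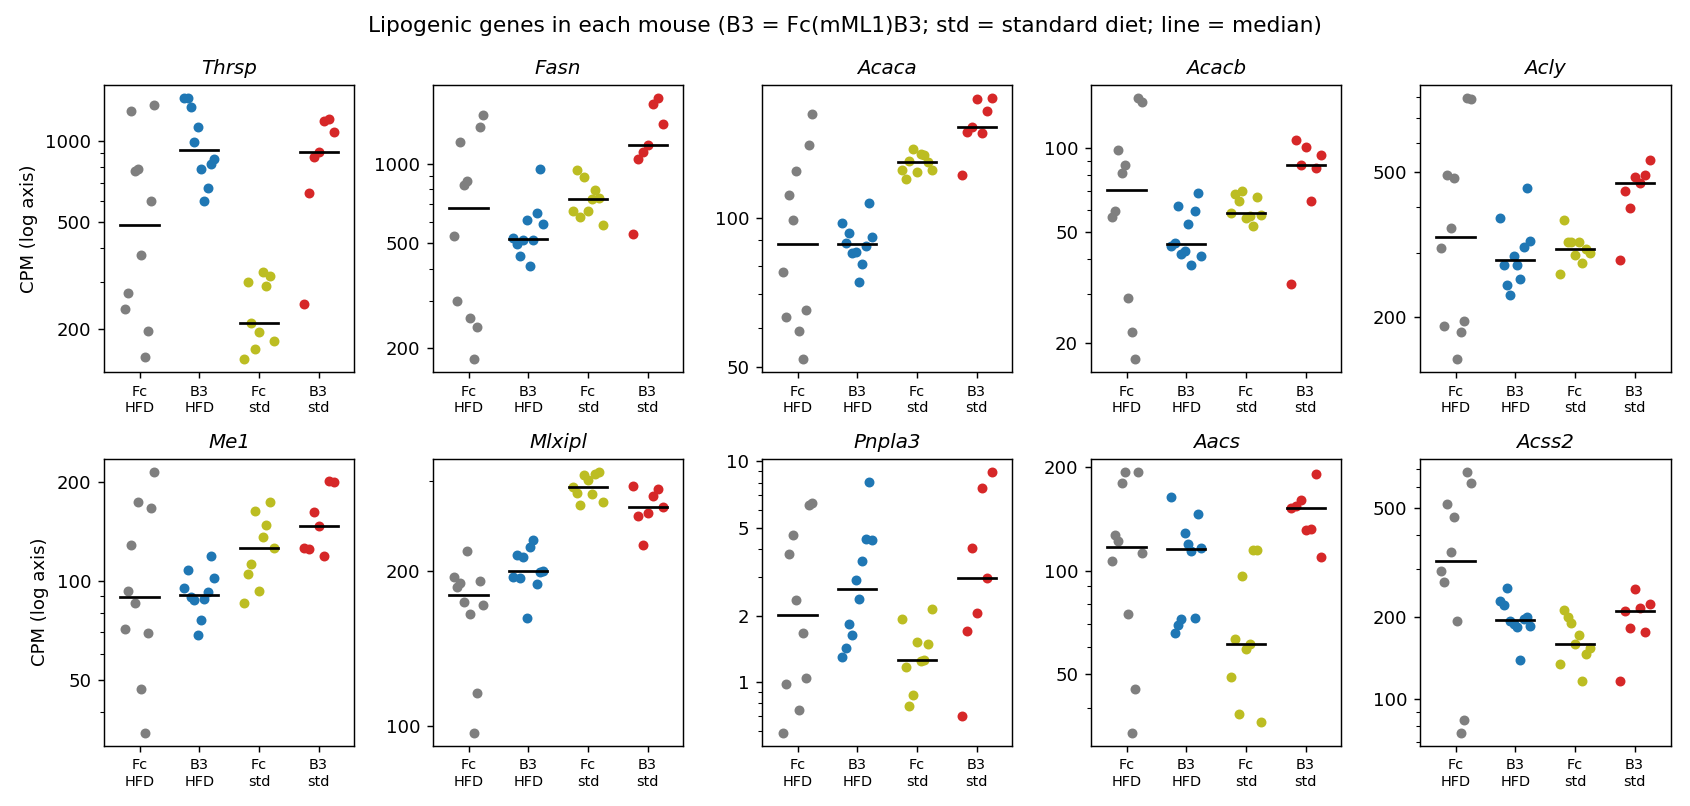
Levels of the 10 genes in CPM (log axis) in each of the 36 mice, 1 point per mouse, with the median of each group as a line; B3 is Fc(mML1)B3 and std the standard diet. Fc mice of the HFD experiment spread widely in most panels, and Fc(mML1)B3 mice of the standard diet lie above their Fc group for Thrsp in 6 of 7 cases.

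Thrsp had the highest level per kilobase of exon of the 10 genes in every group, with means of 584 CPM per kilobase in Fc and 971 in Fc(mML1)B3 mice of the HFD and 230 and 845 under the standard diet. It lies on chromosome 7 of mm10 from 97412957 to 97417510 on the minus strand. On the standard diet the Fc mice had 155, 211 and 328 CPM of Thrsp as lowest, median and highest values, and the Fc(mML1)B3 mice 248, 908 and 1200 CPM. Of the 7 Fc(mML1)B3 mice, 6 exceeded every Fc mouse, and mouse 1, at 248 CPM, lay within the Fc range. The rise was 3.68-fold (log2 fold change 1.88, SE 0.24, 95% confidence interval 1.38 to 2.38, adjusted p = 2.59e-05). The HFD groups had a wider overlap. The Fc mice had 158, 488 and 1370 CPM and the Fc(mML1)B3 mice 600, 925 and 1440 CPM. All 10 Fc(mML1)B3 mice lay above the Fc median but the ranges overlapped, and the log2 fold change of 0.74 (SE 0.33, 95% confidence interval 0.05 to 1.43) had an adjusted p of 0.142. The Fc(mML1)B3 libraries of this diet fall into 2 series by the sample numbers in their file names, whose meaning is not given in the sources used here, and Thrsp was at 1.11 with mice 1 to 4 alone (adjusted p = 0.135) and at 0.43 with mice 5 to 10 alone (adjusted p = 0.549). Along the mouse numbers of the Fc(mML1)B3 libraries, the clock gene Dbp mostly fell, from 25.2 CPM in mouse 1 to 3.57 CPM in mouse 10. Arntl, another clock gene, mostly rose, from 6.68 to 28.7 CPM, and a link to Thrsp was not tested. The Fc libraries of the HFD form a further series, so that series and protein cannot be told apart in that experiment. In the order of the group medians, the Fc(mML1)B3 groups of the HFD and the standard diet came first and did not differ beyond their spread (log2 difference -0.20, SE 0.33, adjusted p = 0.67). The Fc groups followed, and Fc mice had less Thrsp under the standard diet than under the HFD (log2 difference -1.35, SE 0.32, adjusted p = 0.000634).

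The promoters of the genes with the largest rises, together with those of Fasn, Acss2 and Mlxipl, are shown from RefSeq (build GRCm38.p6, the assembly of mm10), 250 bases before to 50 after an annotated start, as the genes that the comparisons below return to most. All 10 members matched an entry, Mlxipl and Me1 with 2 starts each. Capitals mark the CCAAT box (CCAAT), the E-box (CACGTG), the D-box (TTATGTAA) and a sterol element (TCACNCCAC), each searched on both strands.
Thrsp (chr7:97417501-97417800, minus strand): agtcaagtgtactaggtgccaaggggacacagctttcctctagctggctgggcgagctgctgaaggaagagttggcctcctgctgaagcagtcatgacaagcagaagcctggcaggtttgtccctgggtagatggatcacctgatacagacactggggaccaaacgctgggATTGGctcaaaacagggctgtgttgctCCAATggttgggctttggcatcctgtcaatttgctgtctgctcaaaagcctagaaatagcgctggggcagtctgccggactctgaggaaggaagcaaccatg
Pnpla3 (chr15:84167566-84167865, plus strand): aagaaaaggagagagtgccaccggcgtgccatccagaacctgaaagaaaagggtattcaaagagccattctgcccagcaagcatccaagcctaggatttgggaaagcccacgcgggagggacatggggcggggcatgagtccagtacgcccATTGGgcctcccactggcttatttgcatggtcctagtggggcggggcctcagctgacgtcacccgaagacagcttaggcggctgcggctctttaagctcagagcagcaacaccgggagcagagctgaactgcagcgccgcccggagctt
Aacs (chr5:125475623-125475922, plus strand): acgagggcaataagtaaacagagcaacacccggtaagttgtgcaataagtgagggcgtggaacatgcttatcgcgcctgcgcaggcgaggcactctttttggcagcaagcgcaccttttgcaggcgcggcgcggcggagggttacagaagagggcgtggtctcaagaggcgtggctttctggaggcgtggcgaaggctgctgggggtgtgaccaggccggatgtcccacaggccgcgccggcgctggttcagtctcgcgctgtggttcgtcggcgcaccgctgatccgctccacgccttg
Fasn (chr11:120824498-120824797, minus strand): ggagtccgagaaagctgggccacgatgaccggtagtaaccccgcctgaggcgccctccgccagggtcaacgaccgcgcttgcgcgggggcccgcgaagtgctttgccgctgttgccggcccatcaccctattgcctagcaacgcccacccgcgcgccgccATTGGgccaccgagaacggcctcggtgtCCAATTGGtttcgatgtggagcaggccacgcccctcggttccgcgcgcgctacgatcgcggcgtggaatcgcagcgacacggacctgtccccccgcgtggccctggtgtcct
Acss2 (chr2:155517793-155518092, plus strand): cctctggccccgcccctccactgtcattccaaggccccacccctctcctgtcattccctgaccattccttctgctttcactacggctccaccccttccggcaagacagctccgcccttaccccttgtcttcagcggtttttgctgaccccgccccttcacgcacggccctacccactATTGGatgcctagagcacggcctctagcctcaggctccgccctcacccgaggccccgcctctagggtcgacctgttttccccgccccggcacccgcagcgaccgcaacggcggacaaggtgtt
Mlxipl, upstream start (chr5:135089640-135089939, plus strand): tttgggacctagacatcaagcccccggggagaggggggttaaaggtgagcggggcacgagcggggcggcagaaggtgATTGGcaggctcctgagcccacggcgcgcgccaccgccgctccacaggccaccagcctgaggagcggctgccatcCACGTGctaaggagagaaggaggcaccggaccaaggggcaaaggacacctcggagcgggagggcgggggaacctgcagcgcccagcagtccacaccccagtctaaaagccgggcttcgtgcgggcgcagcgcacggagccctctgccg
A CCAAT box stood in 8 of the 12 windows, beside 37.4% of all 32851 promoters, and Me1 had it only at its second start. The GC box (GGGCGG, not capitalised) stood in 5 of the 12, beside 35.7%. Thrsp held a CCAAT box on each strand, 79 and 52 bases before its start, and Fasn held 3 CCAAT boxes, of which those starting 62 and 59 bases before the start overlap as an inverted pair. The Aacs window held none of these motifs. The E-box was found in 1 window, 98 bases before the upstream start of Mlxipl, beside 7.15% of all promoters. The sterol element was also found in 1, 136 bases before the downstream start of Mlxipl, beside 1.24%, and the D-box for 0, beside 0.938%. These matches are letters in short windows and describe no binding.

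Mlxipl encodes ChREBP, which binds DNA together with Mlx and is activated by glucose metabolites. The counted gene lies on chromosome 5 from 135106891 to 135138382, so that a transcript from the upstream start, 17001 bases before it, added reads only from the exons inside this span. Mlxipl was at 96.8, 180 and 219 CPM in the Fc mice of the HFD and at 162, 200 and 230 CPM in the Fc(mML1)B3 mice. The ranges overlapped, and the log2 fold change of 0.25 (SE 0.11) had an adjusted p of 0.131. With the standard diet the Fc mice had 270, 292 and 313 CPM and the Fc(mML1)B3 mice 225, 267 and 294 CPM. The log2 fold change was -0.13 (SE 0.05, adjusted p = 0.101), with 4 of 7 mice below every Fc mouse. Mlxipl was thus the only member with a negative estimate under this diet. The larger difference was between the experiments. All 9 Fc mice of the standard diet exceeded all 10 Fc mice of the HFD (log2 difference 0.77, SE 0.09, adjusted p = 1.44e-08), a separation that 10.1% of all genes showed.

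Acly, Acss2 and Aacs supply or activate the carbon for lipid synthesis. Acly, ATP citrate lyase, had 262, 306 and 369 CPM in the Fc mice of the standard diet and 286, 466 and 538 CPM in the Fc(mML1)B3 mice. Of 7 mice, 6 exceeded every Fc mouse, a 1.44-fold rise (log2 fold change 0.52, SE 0.10, adjusted p = 0.000854). Under the HFD its Fc mice ran from 153 to 795 CPM and its Fc(mML1)B3 mice from 230 to 452 CPM, with a log2 fold change of -0.36 (SE 0.26, adjusted p = 0.36).

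Aacs, acetoacetyl-CoA synthetase, which feeds ketone bodies into lipid synthesis, rose 2.09-fold under the standard diet. The Fc mice had 36.3, 61.2 and 115 CPM and the Fc(mML1)B3 mice 109, 152 and 191 CPM. Here mouse 1, which was low for most members, had 152 CPM, and 6 of 7 mice exceeded every Fc mouse (log2 fold change 1.06, SE 0.21, adjusted p = 0.00184). In the HFD experiment the Fc mice had 33.9, 117 and 194 CPM of Aacs and the Fc(mML1)B3 mice 66.1, 115 and 163 CPM, which overlapped throughout (log2 fold change -0.15, SE 0.26, adjusted p = 0.74).

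Acss2, the cytosolic and nuclear acetyl-CoA synthetase that activates acetate, had the estimate farthest below 0 of the 10 members under the HFD. The Fc mice had 75.5, 321 and 682 CPM and the Fc(mML1)B3 mice 138.96, 195 and 256 CPM. The 10 treated mice were all below the Fc median and inside the Fc range, and the log2 fold change of -0.83 (SE 0.29, 95% confidence interval -1.43 to -0.22) missed the threshold with an adjusted p of 0.0583. Leaving out Fc mouse 6, 7 or 8, the 3 lowest of the group, brought it to adjusted p values of 0.0495, 0.0128 and 0.0157. Acss2 under the standard diet had 117, 160 and 212 CPM in the Fc mice and 116, 210 and 253 CPM in the Fc(mML1)B3 mice (log2 fold change 0.25, SE 0.13, adjusted p = 0.222). Without Fc(mML1)B3 mouse 1 the log2 fold change was 0.34 (adjusted p = 0.0424). The exons of Acss2 share 113 bases, or 3.99% of their length, with Acss2os on the opposite strand and, in the GENCODE M21 annotation, 195 bases, or 6.88%, with Ggt7 on that strand, and the counting ignored strand.

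Me1, cytosolic malic enzyme, supplies NADPH. The Fc mice of the standard diet had 85.9, 126 and 174 CPM and the Fc(mML1)B3 mice 119, 147 and 202 CPM, with overlapping ranges and a log2 fold change of 0.28 (SE 0.15, adjusted p = 0.208). On the HFD the Fc mice ran from 34.6 to 215 CPM and the Fc(mML1)B3 mice from 68.5 to 119 CPM (log2 fold change -0.22, SE 0.24, adjusted p = 0.562).

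Acaca and Acacb encode the 2 acetyl-CoA carboxylases, of which the first makes malonyl-CoA for synthesis and the second sits at the mitochondria, where malonyl-CoA restrains fatty acid import. Acaca, on chromosome 11 from 84195438 to 84401651, had 120, 129 and 137.31 CPM in the Fc mice of the standard diet and 122, 152 and 174 CPM in the Fc(mML1)B3 mice. Of 7 mice, 6 exceeded every Fc mouse, with a 1.20-fold difference (log2 fold change 0.26, SE 0.06, adjusted p = 0.00504). Under the HFD its medians were 88.3 CPM in either group (log2 fold change -0.09, SE 0.17, adjusted p = 0.749). Acacb, on chromosome 5 from 114165518 to 114250758, had 52.6, 58.6 and 69.9 CPM in the Fc mice of the standard diet and 32.7, 86.6 and 107 CPM in the Fc(mML1)B3 mice. Of these, 5 exceeded every Fc mouse and mouse 1 lay below every one, and Acacb was not called (log2 fold change 0.41, SE 0.16, adjusted p = 0.0839). Without mouse 1 it was at 0.55 (adjusted p = 0.000282). In the HFD experiment the Fc(mML1)B3 mice, at 38.2 to 68.9 CPM, were all below the Fc median of 70.5 CPM and within the Fc range of 17.5 to 151 CPM (log2 fold change -0.58, SE 0.30, adjusted p = 0.187).

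Fasn, fatty acid synthase, on chromosome 11 from 120805958 to 120824547, was at 585, 733 and 949 CPM in the Fc mice of the standard diet and at 542, 1180 and 1770 CPM in the Fc(mML1)B3 mice. Of 7 mice, 6 exceeded every Fc mouse and mouse 1 lay below all of them. The rise was 1.69-fold (log2 fold change 0.76, SE 0.17, adjusted p = 0.00433). With the HFD, its levels were 182, 678 and 1530 CPM in the Fc mice and 408, 516 and 956 CPM in the Fc(mML1)B3 mice. In the latter 1 of 10 mice exceeded the Fc median, and the log2 fold change was -0.35 (SE 0.32, adjusted p = 0.496).

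Pnpla3, a lipid droplet protein of the lipase family that follows the lipogenic program, was the weakest member in level. Under the standard diet the Fc mice had 0.780, 1.26 and 2.14 CPM and the Fc(mML1)B3 mice 0.704, 2.95 and 8.96 CPM. The groups overlapped, with 4 of 7 mice above every Fc mouse and mouse 1 below all of them. The fold change was 2.87 (log2 fold change 1.52, SE 0.38, adjusted p = 0.00972) and rested on few reads, with medians of 31 in Fc and 70 in Fc(mML1)B3 libraries. The call was lost with limma-voom (adjusted p = 0.066). Under the HFD Pnpla3 was at 0.589 to 6.5 CPM in the Fc mice and 1.29 to 8.06 CPM in the Fc(mML1)B3 mice (log2 fold change 0.14, SE 0.42, adjusted p = 0.85). It was at -0.89 with Fc(mML1)B3 mice 1 to 4 alone and at 0.57 with mice 5 to 10 alone, neither of them called.

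Fewer calls were made under the standard diet with fewer Fc libraries. Of the 9 Fc libraries, 4 (mice 6 to 9) carry sample numbers of the same series as the Fc(mML1)B3 libraries. With these 4 in place of 9, Thrsp and Acly were called, while Fasn was at 0.81 (adjusted p = 0.0524), Aacs at 0.84 (adjusted p = 0.0552), Acaca at 0.24 (adjusted p = 0.0946) and Pnpla3 at 1.38 (adjusted p = 0.143), so that number and series of the libraries changed together. The fit over all 36 libraries, whose common spread includes the Fc mice of the HFD, called 3 members but not Fasn, Acaca and Acly. For neither of these fits was the share of all genes called computed. Limits on a call differ between places in the study for the standard diet. At an adjusted p below 0.05 and more than 1.5-fold, Thrsp, Fasn, Pnpla3 and Aacs were called, beside 2.36% of all genes, and at an adjusted p below 0.1 and more than 2-fold, a setting added after seeing the data, Thrsp, Pnpla3 and Aacs were, beside 0.604%. At those for the HFD (adjusted p below 0.1, more than 2-fold) no member was called, beside 1.34% of all genes.

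**Figure D2:**
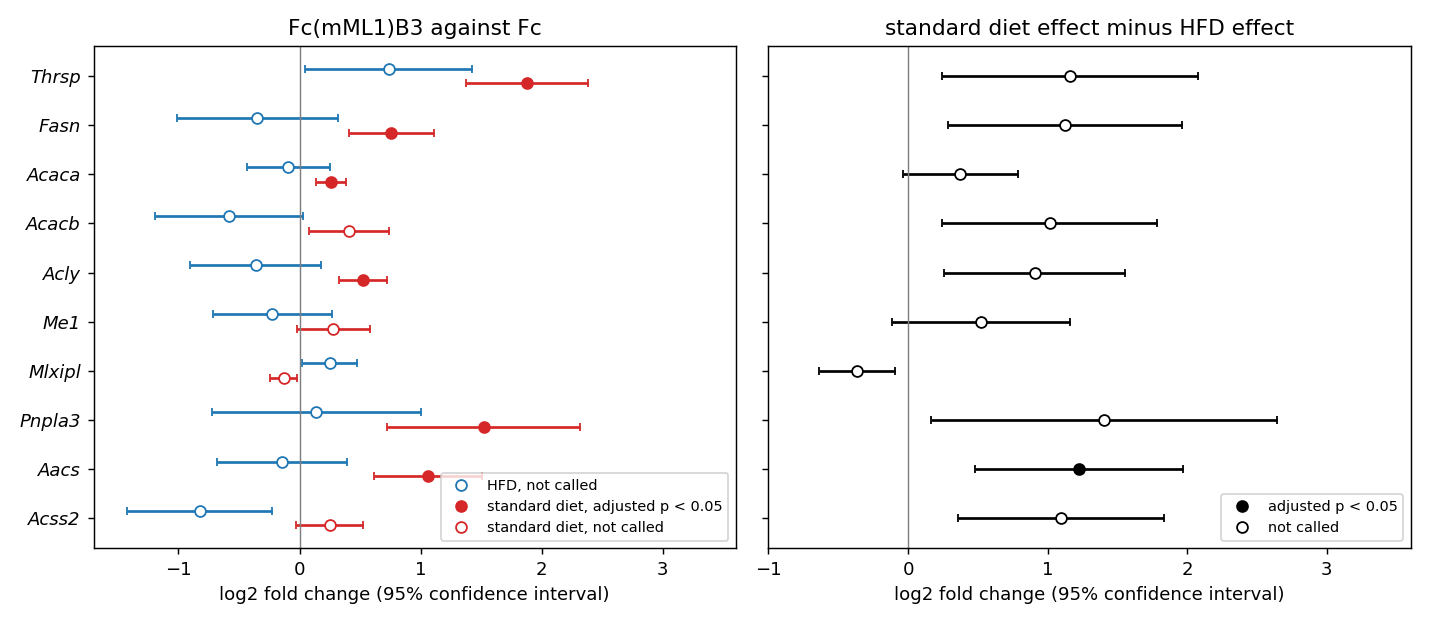
Log2 fold changes of the 10 genes with 95% confidence intervals, Fc(mML1)B3 against Fc in each diet (left) and the standard diet effect minus the HFD effect (right); filled points have an adjusted p below 0.05. Under the standard diet 6 genes are called, under the HFD 0, and in the difference between the diets only Aacs is called.

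The change with Fc(mML1)B3 was compared between diets by the interaction term of a fit to all 36 libraries. Of the 10 members, Aacs was called, with an effect 1.23 higher on the log2 scale under the standard diet (SE 0.37, 95% confidence interval 0.48 to 1.97, adjusted p = 0.0281), beside 4.66% of all genes called higher and 4.4% called lower. The estimates of 8 other members were above 0. Among these, in the order of p, Acss2 came first with 1.10 (SE 0.37, adjusted p = 0.0517). Acly with 0.91 (adjusted p = 0.071), Fasn with 1.13 (adjusted p = 0.0834) and Acacb with 1.01 (adjusted p = 0.0901) followed. Pnpla3 had the largest estimate of the 10, 1.41 (SE 0.61, adjusted p = 0.164), and was not called. Thrsp was at 1.16 (SE 0.45, 95% confidence interval 0.24 to 2.08, adjusted p = 0.11), and Mlxipl went the other way with -0.36 (SE 0.14, adjusted p = 0.0856). The count turned on single mice. Without Fc mouse 7 or 8 of the HFD experiment 5 members were called. Without both, an alternative chosen after seeing the data, 6 were, namely Thrsp, Fasn, Acacb, Acly, Aacs and Acss2. The shares of all genes called in these fits were not computed. These 2 mice had the 2 lowest levels of Thrsp, Fasn and Acss2 in their group as well as its highest S100a8, so that leaving them out raises the Fc means by construction. Without Fc(mML1)B3 mouse 6 of the standard diet 0 members were called, Aacs having an adjusted p of 0.0542.

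Between the Fc groups, 2 members were higher under the standard diet and 4 were lower, beside 23.3% of all genes called higher and 24.6% called lower. Mlxipl and Acaca (log2 difference 0.42, SE 0.14, adjusted p = 0.0115) were higher. Thrsp, Acss2 (-1.11, SE 0.25, adjusted p = 0.000458), Aacs (-0.76, SE 0.26, adjusted p = 0.0131) and Pnpla3 (-1.07, SE 0.44, adjusted p = 0.0403) were lower. The call of Pnpla3 was lost with limma-voom (-0.59, adjusted p = 0.366), and without Fc mice 7 and 8 Acacb (-0.52, adjusted p = 0.0377) and Acly (-0.52, adjusted p = 0.039) were called lower too. Fasn was not called, at 0.01 (SE 0.28, 95% confidence interval -0.57 to 0.58), and its sign turned with upper-quartile scaling. Between the Fc(mML1)B3 groups, 5 members were higher under the standard diet and 0 lower, beside 20.7% and 17.9% of all genes. These were Fasn (1.13, SE 0.30, adjusted p = 0.00281), Acaca (0.80, SE 0.15, adjusted p = 4.45e-05), Acacb (0.71, SE 0.28, adjusted p = 0.0371), Me1 (0.74, SE 0.23, adjusted p = 0.00928) and Mlxipl (0.41, SE 0.10, adjusted p = 0.00109). The call of Acacb was lost with upper-quartile scaling (adjusted p = 0.0612), and Acly was called with limma-voom (0.58, adjusted p = 0.0219). For Acaca, all 7 Fc(mML1)B3 mice of the standard diet exceeded all 10 of the HFD, a separation that 10.2% of all genes showed. Markers of other cells differed between the diets as well. In the Fc groups 5 of 7 stellate cell, 2 of 6 macrophage and 1 of 4 cholangiocyte markers and 1 of 3 tested adipocyte markers (Fabp4) were lower under the standard diet and 2 of 6 hepatocyte markers higher, and in the Fc(mML1)B3 groups these counts were 4, 1, 2, 2 and 1. Their part in the differences of the members was not tested. Both comparisons share their mice with those of the proteins and are not further evidence on them.

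The spread between mice also differed between the groups. With the HFD the SD of log2 CPM was larger in the Fc than in the Fc(mML1)B3 mice for all 10 members, against 46.2% of the 13200 genes tested in every comparison. The median ratio of these SDs was 3.17 for the members and 0.97 for all genes. It was 4.78 for Acss2 (SD 1.12 and 0.23), 3.90 for Acaca, 3.36 for Fasn (SD 1.15 and 0.34) and 1.52 for Pnpla3. Fc mice 6, 7 and 8 held low values of most members and mice 3, 5, 9 and 10 high ones. The summed level of the 10 genes ran from 837 to 5120 CPM in the Fc mice and from 2060 to 3170 CPM in the Fc(mML1)B3 mice. For the standard diet the SD was larger in the Fc mice for 2 of 10 members, against 56.7% of all genes, and the median ratio was 0.50 for the members and 1.07 for all genes. Fc(mML1)B3 mouse 1 was far from the others of its group for Thrsp and Acacb. These spreads were seen before they were compared and were not tested. The total counts of Fc mice 6, 7 and 8 were 15489647, 15111050 and 15600932, those of mice 5 and 9 were 27600939 and 26890959 and that of mouse 10 was 17166873, and the part of depth in the spread was not tested.

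The ratio of Thrsp to Acss2 separated the HFD groups although the ranges of either gene overlapped. In the Fc mice the CPM of Thrsp was 0.809 to 2.49 times that of Acss2, with a median of 2.02, and in the Fc(mML1)B3 mice 3.41 to 6.52 times, with a median of 4.87. Of the 9 ratios of Thrsp to another member, that to Acss2 alone separated the groups completely, while over 9888 genes with at least 5 CPM on average 0.172% of the ratios to Thrsp did so in this direction. The ratio to Acacb came close, with 3.96 to 13.2 in the Fc and 11.3 to 32.5 in the Fc(mML1)B3 mice. In the standard diet experiment the ratio to Acss2 ran from 0.893 to 2.48 in the Fc and from 2.13 to 6.83 in the Fc(mML1)B3 mice and overlapped, and those to Fasn (0.192 to 0.447 and 0.457 to 0.784) and Acacb did not, beside 4.45% of all genes. Mouse 1, low in both genes of a pair, was on the side of its own group in the ratios to Fasn and Acacb. The ratios were formed after the values had been seen and carry no test.

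**Figure D3:**
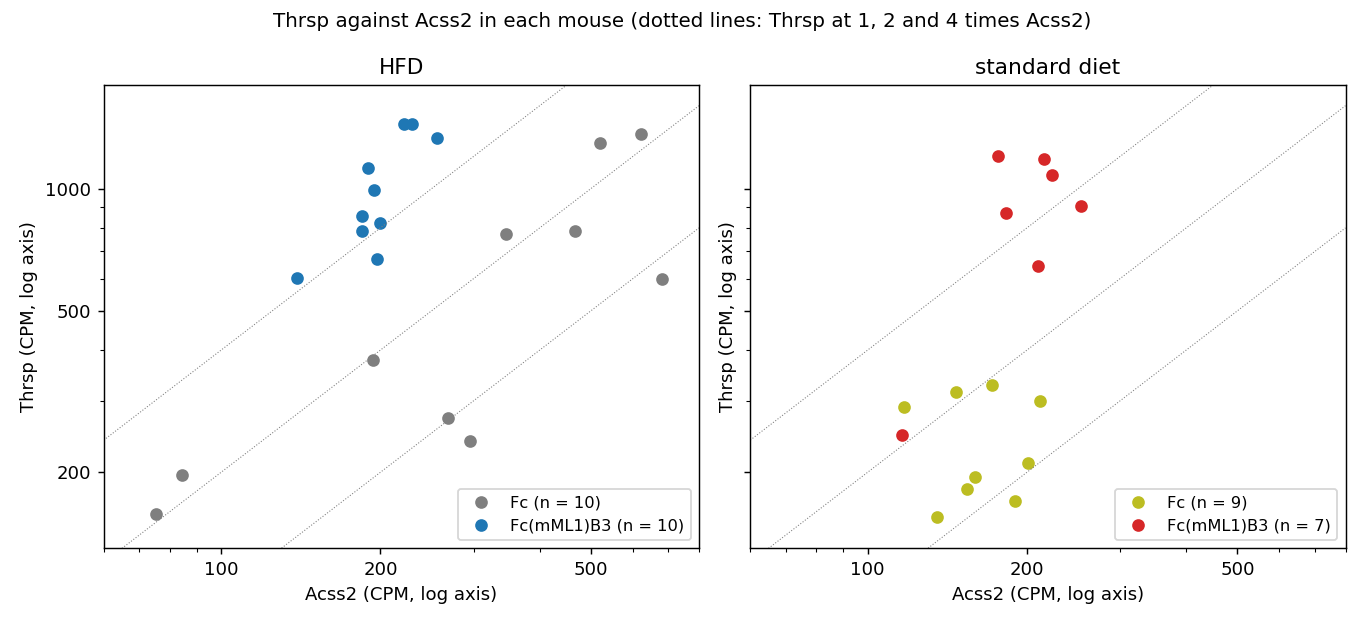
Thrsp against Acss2 in CPM (both axes log) in each mouse of the HFD experiment (left) and the standard diet experiment (right); dotted lines mark Thrsp at 1, 2 and 4 times Acss2. Under the HFD the Fc mice lie below a ratio of 2.49 along the whole range of either gene and the Fc(mML1)B3 mice above 3.41.

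Among mice of the same group, Thrsp and most of the enzymes deviated together. The deviations of log2 CPM from the group means over 36 mice gave a Pearson r with Thrsp of 0.77 for Fasn (Spearman rho 0.67, permutation p = 0.00012 and 0.00036), 0.76 for Acaca (rho 0.72), 0.75 for Acss2 (rho 0.64), 0.70 for Acacb (rho 0.47), 0.68 for Acly (rho 0.66) and 0.65 for Me1 (rho 0.59). Lower values were found for Pnpla3 (r 0.50, rho 0.40), Aacs (r 0.43, rho 0.36) and Mlxipl (r 0.38, rho 0.17, permutation p = 0.124 and 0.36). Adjusted over these 9 relations, 8 had a permutation p below 0.05 by Pearson r, all but Mlxipl, and 6 by Spearman rho. The share of all genes that would pass this test was not computed, and Aacs, counted among the 8, ranked 562nd by r of 9888 genes. Without the 2 mice farthest in Thrsp, Fc mouse 7 of the HFD and Fc(mML1)B3 mouse 1 of the standard diet, 6 remained below it and r was 0.68 for Fasn and 0.68 for Acss2. In the HFD experiment alone 6 of 9 passed, and in the standard diet experiment 2, Fasn (r 0.85) and Acly (r 0.79). Under the HFD several pairs of enzymes had a higher r than any with Thrsp, such as 0.95 between Fasn and Acaca and between Acacb and Acss2. In the other experiment these were 0.66 and 0.75, and Mlxipl had r values of -0.43 to 0.51 with the other members. Genes of the same libraries share depth and RNA quality, and these r values describe covariation only. The Fc mice of the HFD weigh most in them, with SDs of log2 CPM of 1.13 for Thrsp and 1.15 for Fasn. In the Fc(mML1)B3 mice of the HFD these SDs were 0.45 and 0.34. There mouse 9, highest of its group in Fasn (956 CPM) and Pnpla3 (8.06 CPM), had 824 CPM of Thrsp, below the median of 925. The relation within single groups was not tested and need not hold in each.

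**Figure D4:**
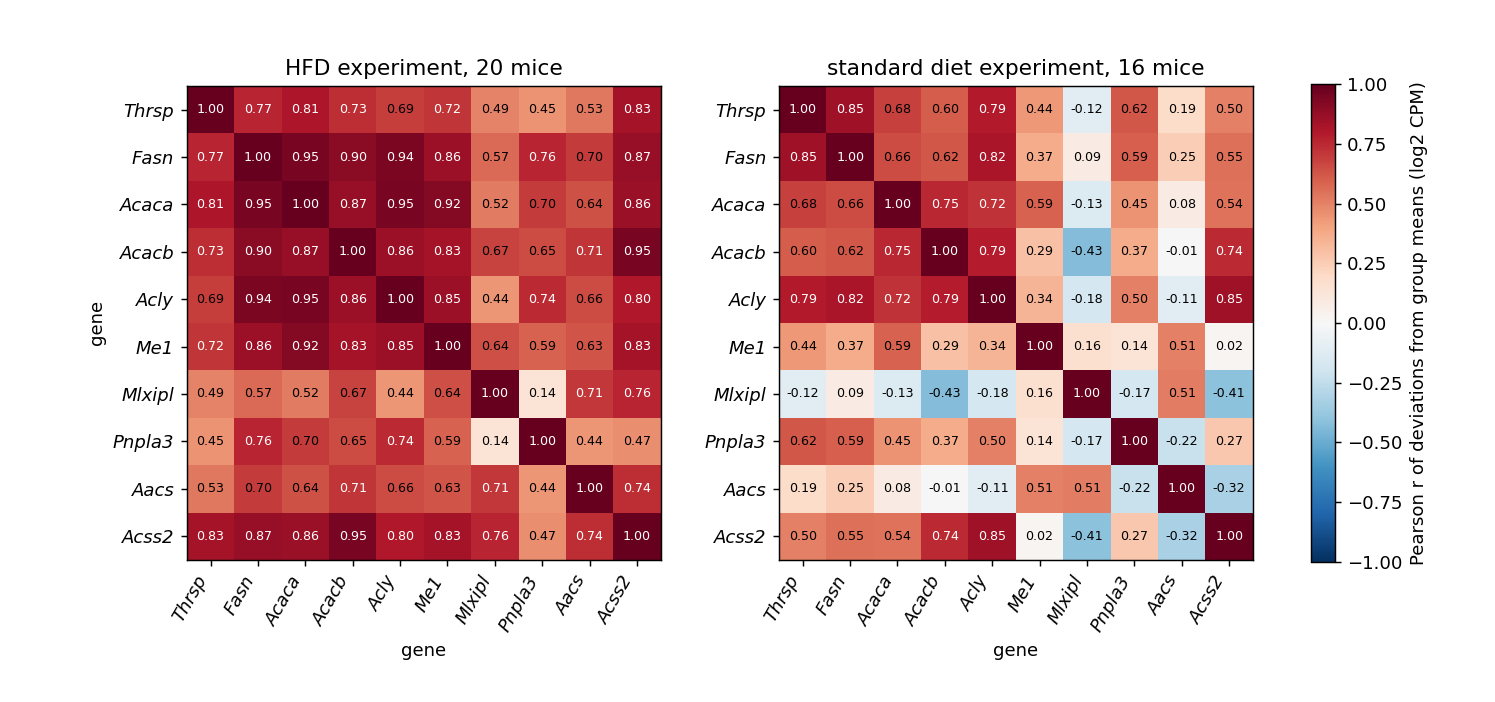
Pearson r between the 10 genes over deviations of log2 CPM from group means, in the HFD experiment (20 mice, left) and the standard diet experiment (16 mice, right), on a scale from -1 (blue) to 1 (red). All pairs are above 0 under the HFD, while Mlxipl and Aacs have pairs near or below 0 under the standard diet.

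Outside the members, the 5 genes whose deviations were most like those of Thrsp among 9888 genes were Prodh (r 0.85), Khk (0.84), Tmem97 (0.83), Elovl6 (0.81) and Acat2 (0.80). Prodh encodes proline dehydrogenase, Khk ketohexokinase of fructose metabolism, Elovl6 an elongase of palmitate and Acat2 a cytosolic acetoacetyl-CoA thiolase. Fasn ranked 13th among all genes, Acss2 ranked 16th and Mlxipl 870th. Under the standard diet, 4 of these 5 were called higher with Fc(mML1)B3 (Prodh by 0.73, Khk by 0.28, Tmem97 by 0.41 and Elovl6 by 1.09), beside 8.56% of all genes, and Acat2 was at 0.22 (adjusted p = 0.0962). Under the HFD 0 of them were called, with adjusted p values from 0.0942 to 0.814, beside 8.14% of all genes called higher and 6.68% lower. The interaction called Tmem97 (0.63), Elovl6 and Acat2 (0.72, adjusted p = 0.049), beside 4.66% of all genes called higher.

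The other genes of the pathway were followed as 42 genes in 5 lists, all of which were tested. With Fc(mML1)B3, 14 were higher and 3 lower under the standard diet, and 5 were higher and 3 lower under the HFD, with median log2 fold changes of 0.07 and -0.09. The shares of all genes were 8.56% higher and 7.55% lower under the standard diet and 8.14% and 6.68% under the HFD, and the same shares stand behind the counts of each list that follows. The interaction called 5 higher and 2 lower, beside 4.66% and 4.4% of all genes.

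Among 10 genes of glucose entry and ChREBP targets, 6 rose under the standard diet and 3 under the HFD, with medians of 0.28 and 0.47. The fructose enzyme Tkfc was called in both, with 0.52 (SE 0.08, adjusted p = 0.000175) and 0.59 (SE 0.18, adjusted p = 0.0294). Pklr, liver pyruvate kinase, rose by 0.58 under the standard diet (adjusted p = 0.000417) and was at 0.64 under the HFD (SE 0.25, adjusted p = 0.0853). The interaction terms of Tkfc and Pklr were -0.06 and -0.05, with 95% confidence intervals of -0.51 to 0.39 and -0.67 to 0.58. The glucose transporter Slc2a2 rose by 0.28 under the standard diet and was called in the interaction (0.36, SE 0.11, adjusted p = 0.0364). Gpd1, glycerol-3-phosphate dehydrogenase, rose by 0.74 under the HFD and was at -0.18 under the standard diet (interaction -0.90, SE 0.15, adjusted p = 6.63e-05).

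Among 10 genes of transcriptional control, 2 were higher and 1 lower under the standard diet, and 2 were higher and 2 lower under the HFD. Mlx, the partner of ChREBP, was higher in both, by 0.34 and 0.32. Srebf1, which encodes SREBP-1, rose by 0.43 under the standard diet (SE 0.09, adjusted p = 0.00251), was at -0.31 under the HFD (adjusted p = 0.143) and differed between them by 0.76 (SE 0.18, adjusted p = 0.0046). Insig2, which holds SREBP in the endoplasmic reticulum, went in opposite directions, at -1.09 under the standard diet (adjusted p = 7.73e-08) and at 1.42 under the HFD (adjusted p = 6.94e-05) (interaction -2.49, SE 0.26, adjusted p = 1.56e-08). Its levels were 130 to 202 CPM in Fc and 74.5 to 84.6 CPM in Fc(mML1)B3 mice of the standard diet, without overlap, as for 2.97% of all genes, and under the HFD their medians were 71.1 and 194 CPM. The coactivator Ppargc1b (-0.77) and Nr1h2 (-0.29) were lower under the HFD.

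Among 7 genes of elongation and desaturation, 2 were higher and 1 lower under the standard diet and 0 were called under the HFD. Elovl6 had 147 to 242 CPM in the Fc and 267 to 607 CPM in the Fc(mML1)B3 mice of the standard diet, without overlap, beside the same 2.97% (log2 fold change 1.09, SE 0.14, adjusted p = 2.72e-05), and -0.11 under the HFD (interaction 1.22, SE 0.35, adjusted p = 0.0212). Fads2, a desaturase, rose by 0.41 and Elovl5 fell by 0.48 on the log2 scale under the standard diet, and Fads2 was called in the interaction (0.79, adjusted p = 0.0262). Among 7 genes that act on the carboxylases or on malonyl-CoA, Mid1ip1, a paralog of Thrsp that polymerises acetyl-CoA carboxylase, rose by 0.49 under the standard diet (SE 0.16, adjusted p = 0.0466) and was at -0.30 under the HFD (interaction 0.80, SE 0.21, adjusted p = 0.0118). Prkaa2, a catalytic subunit of AMP-activated kinase, rose by 0.32 under the standard diet (adjusted p = 0.0153) and was at 0.04 under the HFD (adjusted p = 0.824). Trib3, a pseudokinase tied to the degradation of acetyl-CoA carboxylase, was lower in both diets, with -1.41 (adjusted p = 1.23e-06) and -1.24 (adjusted p = 0.00129). Among 8 genes of citrate and NADPH supply, Tkt (0.21) and Mdh1 (0.13) rose under the standard diet and 0 were called under the HFD.

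**Figure D5:**
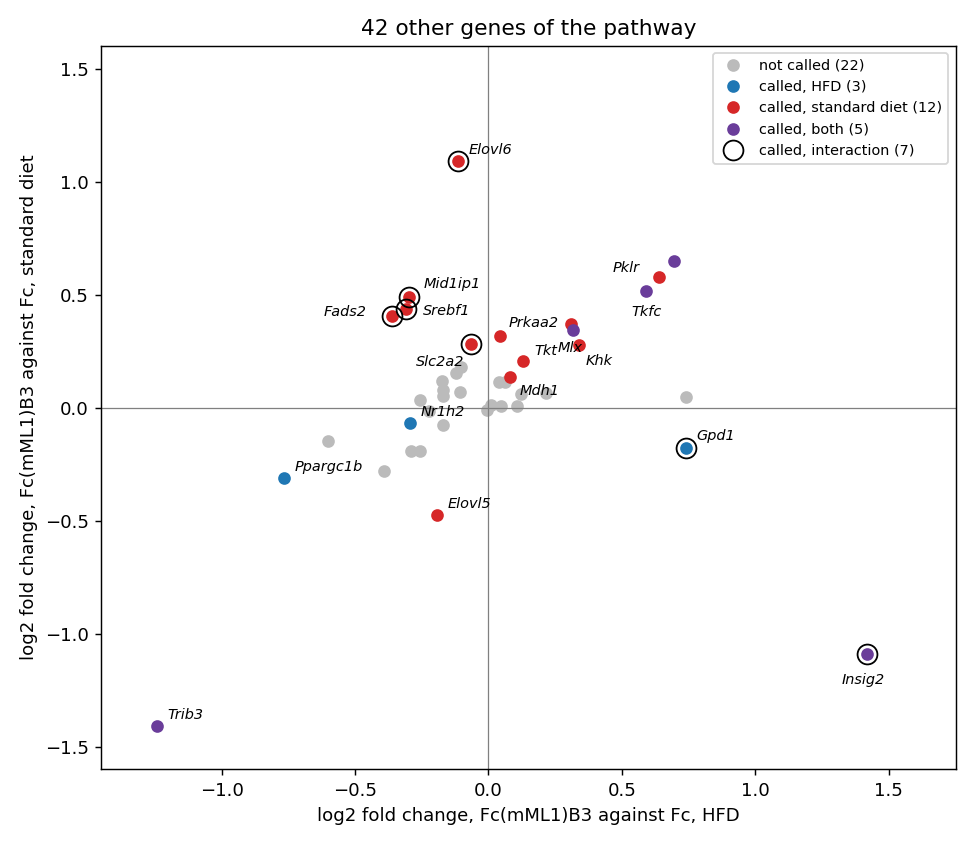
Log2 fold changes of 42 other genes of the pathway, Fc(mML1)B3 against Fc, under the HFD (horizontal) and the standard diet (vertical), 1 point per gene, coloured by where the adjusted p is below 0.05 and ringed where the interaction is called. Tkfc and Pklr lie near the diagonal, and Elovl6, Mid1ip1, Srebf1 and Fads2 lie above 0 on the vertical axis only.

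Several lipogenic genes vary over the day and with feeding. Clock genes differed between the Fc(mML1)B3 and the Fc mice, several of them in opposite directions in the 2 experiments. The interaction called 8 of 14 clock genes higher and 5 lower, beside 4.66% and 4.4% of all genes. Of 14 clock genes, 13 were tested under the HFD, of which 5 were called higher and 8 lower. Under the standard diet all 14 were tested, of which 6 were called higher and 5 lower. Beside these and the other counts of this paragraph stand 8.14% of all genes called higher and 6.68% lower under the HFD. Under the standard diet these shares were 8.56% and 7.55%. Arntl was at 0.619 to 2.09 CPM in the Fc and 6.68 to 28.7 CPM in the Fc(mML1)B3 mice of the HFD, and at 2.30 to 6.45 and 0.918 to 3.39 CPM under the standard diet. Of 7 fasting genes, Pdk4 was higher under the HFD (1.08, adjusted p = 0.0137), and under the standard diet Cpt1a was higher (0.26, adjusted p = 0.00582) and Igfbp1 lower (-1.50, adjusted p = 0.00361). Fc(mML1)B3 mouse 1 of the standard diet, lowest of its group in Thrsp, had 113 CPM of Dbp, the highest of its group. The part of time of day or feeding in the lipogenic genes was not tested. The summed level of 7 adipocyte markers was 13.7 to 21.4 CPM in the Fc and 12.1 to 15.3 CPM in the Fc(mML1)B3 mice of the standard diet, and 18.0 to 62.4 and 20.4 to 30 CPM under the HFD. Of 6 hepatocyte markers, 1 was called higher in each diet, Cps1 (0.19) under the standard diet and Hnf4a (0.37) under the HFD. Macrophage markers gave 0 calls of 6 in either diet, and of the markers of stellate cells and cholangiocytes 2 of 7 and 1 of 4 were lower under the standard diet and 0 under the HFD. Of the 2 adipocyte markers that could be tested, Fabp4 was lower under the standard diet (-0.30, adjusted p = 0.0264) and 0 were called under the HFD. In whole liver, fewer cells of a type and less RNA per cell cannot be told apart.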

How the data were processed

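Liver RNA of 36 mice was sequenced as paired reads. Per the labels and the study's methods, the authors trimmed reads with fastp, removed ribosomal RNA with Bowtie2 2.4.5, aligned to mm10 with STAR 2.7.10a and counted reads per gene with featureCounts of Subread 2.0.3. The deposited values are counts, not normalized; each end was counted as a read, strand was ignored and reads with several alignments were not counted. Groups and mouse numbers came from the sample titles. The 10 genes and all gene lists were chosen with earlier results of these data known.

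Counts were tested with edgeR 4.0.16 (R 4.3.3): TMM, filterByExpr, quasi-likelihood F-test, Benjamini-Hochberg adjustment over 13299 (HFD), 13570 (standard diet) or 14105 genes (fit over 36 libraries, for the interaction and between diets). SE is the log2 fold change divided by the root of F. CPM used TMM factors over all libraries, and log2 CPM a prior count of 0.5. Correlations with Thrsp used 100000 permutations of mice within groups. Tests were run on simulated data with 200 changed genes first. Genes named from the pathway lists are up to 4 called genes with the smallest p per list and diet and those called in the interaction, except some that are not reported here. Alternatives were DESeq2 1.42.0, voom of limma 3.58.1, other scalings, no filter, the study's limits, library series, a block for the mouse number and leaving out every library in turn. Libraries held 14949035 to 28466853 counted reads, and Pnpla3, the weakest member, had group medians of 31 to 70 reads. Among 147 pairs of libraries within groups none were duplicates (chi-square per degree of freedom at least 6.305).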

Additional observations from a re-analysis of the deposited data

Results flagged for a closer look

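For the members and named pathway genes, 120 groups of mice were checked. Of these, 6 held a mouse far from the others by Dixon's ratio at the 95% level. Chance gives about 1 in 20, which this count does not exceed. Under the standard diet, Fc(mML1)B3 mouse 1 was far for 3 genes. It had 248 CPM of Thrsp against 643 to 1200 in the other 6 mice, 32.7 CPM of Acacb against 64.6 to 107 and 257 CPM of Pklr against 351 to 422. Under the HFD, Fc(mML1)B3 mouse 7 had 138.96 CPM of Acss2 against 185 to 256 in the other 9, mouse 5 had 217 CPM of Fads2 against 364 to 647, and mouse 2 had 40.6 CPM of Nr1h2 against 29.8 to 34.6.

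For 8 genes edgeR's interaction test called a difference between the diets in the change with Fc(mML1)B3 (standard diet effect minus HFD effect on the log2 scale). The difference was 1.23 for Aacs, 0.76 for Srebf1, -2.49 for Insig2, 0.36 for Slc2a2, -0.90 for Gpd1, 1.22 for Elovl6, 0.79 for Fads2 and 0.80 for Mid1ip1. Diet cannot be told apart from dosing schedule and experiment in these values.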

How the results depend on the processing

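Of 1155 values for single genes and correlations under alternatives, 1073 kept their direction and side of the threshold. Where calls changed, the cause was not tested unless stated. Members called under the HFD (0) became 2 with limma-voom (Thrsp and Mlxipl), 1 in the fit over all 36 libraries (Acss2), 1 with the replicate block (Thrsp), 2 without Fc mice 7 and 8 (Acacb and Acss2) and 0 to 1 when each mouse was left out. Those under the standard diet (6) became 3 in the fit over all libraries 2 with Fc mice 6 to 9 only (fewer libraries, of 1 series), 3 at the second limits of the study, and 6 to 8 with each mouse left out. The interaction (1) became 2 with limma-voom, 0 with the replicate block, 6 without Fc mice 7 and 8 and 0 to 5 with each mouse left out. Pathway genes under the HFD (8) became 15 with limma-voom, 14 over all libraries, 2 at the study's limits, and 3 and 5 with Fc(mML1)B3 mice 1 to 4 or 5 to 10 only. Those under the standard diet (17) became 6 over all libraries, 4 and 3 at the study's 2 sets of limits and 11 with Fc mice 6 to 9. Correlations (8) became 2 under the standard diet alone. The shares of all genes called under these alternatives were not computed, except at the limits of the study.

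These estimates, none of them called, turned sign. Under the HFD limma-voom gave 0.039 for Fasn, 0.037 for Acaca and 0.001 for Me1, the replicate block 0.001 for Acaca, and Pnpla3 was at -0.89 with Fc(mML1)B3 mice 1 to 4 only and at -0.033 without Fc mice 7 and 8. Leaving out each mouse gave -0.16 to 0.03 for Acaca and -0.12 to 0.35 for Pnpla3. Between Fc groups Fasn was at -0.072 with upper-quartile scaling and at -0.21 without Fc mice 7 and 8, and Acacb at 0.002 with limma-voom; between Fc(mML1)B3 groups Acss2 was at 0.02 with limma-voom. The r of Mlxipl was -0.12 under the standard diet alone.

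The mouse numbers showed no general pairing of the libraries over all genes, and whether they follow cage, day or order of collection is not stated. With the block, 6 members were called under the standard diet, with Me1 (0.36, adjusted p = 0.0187) gained and Pnpla3 (1.40, adjusted p = 0.0588) lost, by edgeR. Correlations of same-numbered deviations were -0.65 to 0.30 over 10 pairs under the HFD, with 1 mouse closest to its own number, and -0.17 to -0.02 over 7 pairs under the standard diet, with 0.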
